A study of Mus musculus with 6 samples.

Results

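The 43 genes described here encode the machinery that copies the genome in S phase. They were taken as the rows of the deposited gene comparison whose symbol is one of a list of replication genes. All 43 were found, each in 1 of the 23793 rows, and all 43 were among the 10657 rows that the authors had tested. The RNA-seq libraries were made from i660BM, a pro-B line of C57BL/6 mouse origin that is grown with interleukin 7. The line carries a doxycycline-inducible PU.1, the ETS family transcription factor encoded by Spi1. The induced group held 3 libraries made after 48 h of doxycycline at 70 ng/ml, and the non-induced group held 3 libraries of the same line without induction. The libraries came from 1 line, and the labels do not say whether they came from separate cultures. No library received doxycycline without the inducible PU.1 system, so the drug and the factor cannot be told apart.

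Replication starts at origins that are marked by the origin recognition complex and loaded, in G1, with the MCM helicase by Cdc6 and Cdt1. This step is called licensing. Kinases then recruit Cdc45 and the GINS complex, which turn the loaded ring into an active helicase. DNA polymerases, a sliding clamp and its loader copy the opened strands, while single-strand binding proteins, a flap nuclease and a ligase handle the discontinuous strand. Enzymes of deoxynucleotide synthesis supply the building blocks, and chromatin assembly factors place histones on the new DNA. Many of these genes are known targets of E2F transcription factors. Pro-B cells divide in response to interleukin 7, and dividing cells rely on this machinery.

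Each gene had 1 FPKM value per group, fragments relative to transcript length and to library size, made by the authors from the 3 libraries of that group. No value per library was given, so the spread between libraries is not shown, and a gene is called where the authors' q-value was under 0.05. Dividing the authors' log2 change by their test statistic gave an implied standard error (SE) for each gene. The steps between the lowest values corresponded to about 122000000 fragments for the induced group and 119000000 for the non-induced group. Spi1, the induced gene, stood at 246 FPKM in induced and 36.0 FPKM in non-induced cells in the authors' deposited table, in the direction of the labels. Of 11 pro-B markers, 10 were tested and 8 were called higher, while Kit was listed at 0 in both groups. Of 6 macrophage markers 3 were tested and called higher, and their summed level was 23.3 FPKM in induced and 2.28 FPKM in non-induced cells, with Csf1r and Emr1 listed at 0 in non-induced cells. Of 5 granulocyte markers, all 5 were listed at 0 in induced cells and 4 in non-induced cells. T cell markers summed to 0.193 FPKM in induced and 0.306 FPKM in non-induced cells, and erythroid markers to 0.151 FPKM in induced and 0.190 FPKM in non-induced cells. The part of the macrophage genes in the results below was not tested.

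Replication genes were nearly all slightly higher after induction. The level was higher in induced cells for 42 of the 43 members, and Orc2 alone was lower. In the authors' deposited table the changes ran from -7.21% for Orc2 to 44.7% for Cdt1, with a median of 15.8%, a median log2 change of 0.21. Over all tested genes the median log2 change was -0.01 and 48.6% of genes were higher in induced cells. Over the 6605 tested genes with a mean of at least 10 FPKM, a level that every member reached, the median was -0.02 and 46.0% were higher. In bulk RNA a larger share of cells in S phase and more RNA per cell cannot be told apart. FPKM is a relative scale, so a change in the total RNA of a cell is not seen in it.

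The authors' q-values called 35.1% of all tested genes in either direction. They called 23 of the 43 members higher (53.5%), beside 19.0% of all tested genes. They called 0 members lower, beside 16.1% of all tested genes. At an unadjusted p under 0.05, 0 members were lower, beside 20.4% of all tested genes. Cuffdiff was the tool in both cases. At q under 0.01, 17 members were higher (39.5%), beside 14.8% of all tested genes. The rises were small. Called rises of at least 25% were found for 13 members (30.2%), beside 13.1% of all tested genes, and called rises of at least 1.5-fold for 0 members, beside 6.34% of all tested genes. With normal p-values taken from the authors' test statistic, 3 members were called higher (6.98%), beside 9.21% of all tested genes. Those 3 were Cdt1, Rfc3 and Rrm2. The authors' p-values were smaller than the statistic alone would give: the normal deviate of the p-value was 1.72 times the statistic at the median over 34 members and 1.69 times over 8802 tested genes. The count of called members thus rests on which of the authors' own columns is read. The direction is that of the same log2 change in each column, so it could not differ between them.

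**Figure D1:**
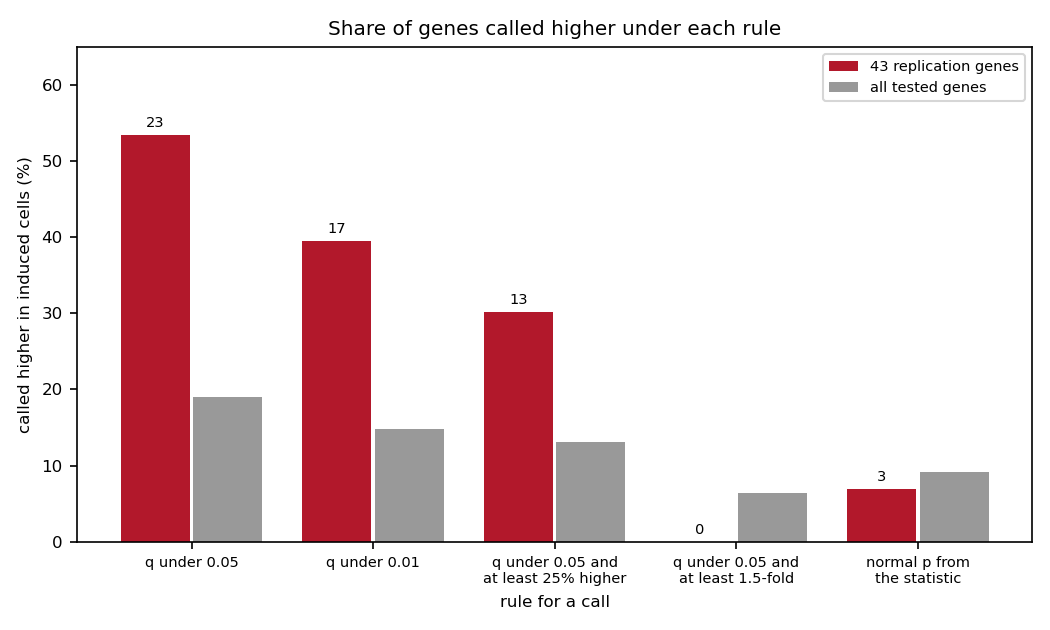
Bars give the share of genes called higher in induced cells under 5 rules, on an axis that starts at 0, for the 43 replication genes (red, with the number called above each bar) and for all tested genes (grey). The replication genes stand above all tested genes under the first 3 rules, at 53.5% against 19.0% for q under 0.05, and below them under the last 2.

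Most levels were moderate to high in non-induced cells, where only Gins3, Orc1 and Cdc6 lay below the median of all tested genes. They ran from 11.7 to 301 FPKM in induced cells and from 10.4 to 266 FPKM in non-induced cells. At least 100 FPKM was reached by 16 members in induced cells and by 15 in non-induced cells. The lowest member, Gins3, stood at percentile 39.2 of all tested genes in non-induced cells. With the longest annotated coding transcript as the length, the members' values in non-induced cells correspond to about 3100 fragments for Gins3 and up to about 140000 for Mcm6. The size of the change did not follow the level closely. Across the 43 genes, which share the same libraries and are not replicates, Spearman's rho between mean FPKM and log2 change was 0.16.

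**Figure D2:**
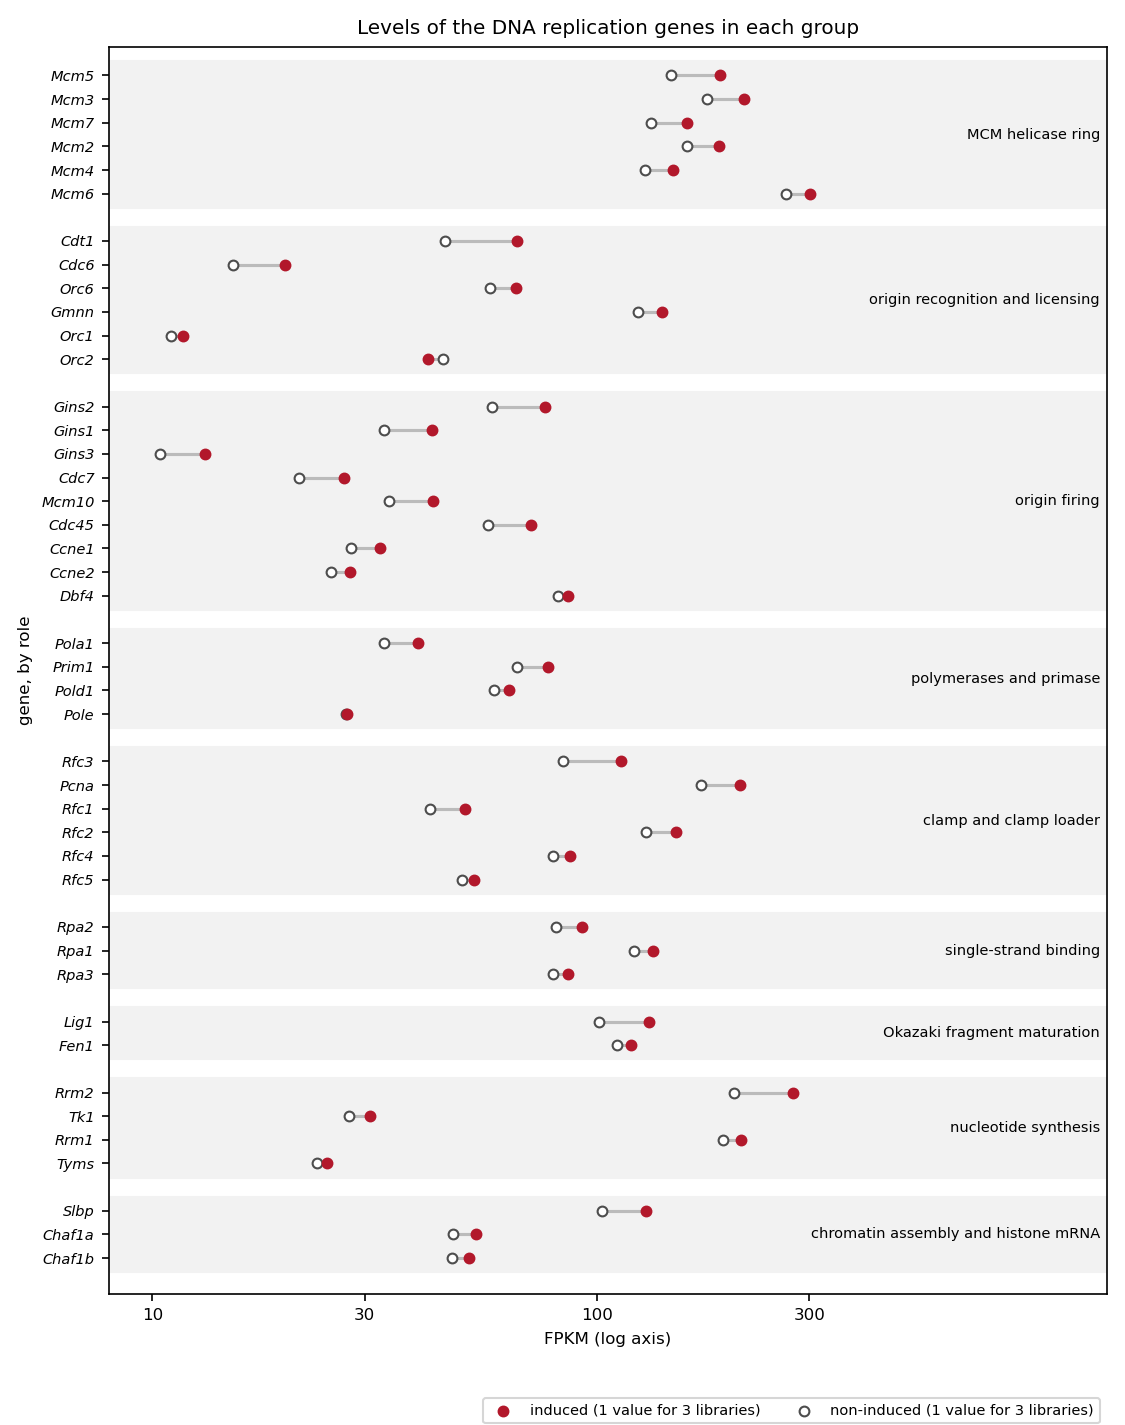
FPKM of each replication gene (log axis) in induced cells (red points) and non-induced cells (open points), with genes grouped by role and ordered by change. Each point is the authors' 1 value for 3 libraries and has no error bar. The red point lies to the right of the open point for every gene except Orc2, and the points of Pole coincide.

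The promoters of the members were looked at for letters that transcription factors read. RefSeq (GRCm38.p6, the same assembly as mm10) gave windows from 250 bases before to 50 after the start for 36 of the 43 members. These were 42 windows, as 5 members had several, and a gene was counted where any of its windows held the letters. The E2F letters TTTCCCGC, TTTCGCGC, TTTGCCGC and TTTGGCGC, on either strand, were present in 12 of the 36 (33.3%), beside 5.08% of the 8015 tested genes with a window and 2.60% of 27025 genes. They were present in 9 of 19 members called higher and in 3 of 17 members not called. The PU.1 letters GAGGAAGT, on either strand, were present in 1 of the 36, that of Rfc1 (2.78%), beside 3.84% of tested genes. The letters CCAAT were present in 23 of the 36 (63.9%), beside 43.8% of tested genes. Median GC content was 61.6% in members and 60.7% in tested genes. Of the 42 windows, 36 ended inside an annotated transcript of the gene. A match is a description of letters and not a site of binding.

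The stretches of up to 180 bases before the RefSeq start that hold E2F letters and overlap no annotated exon are shown for 4 members, so that the match can be read outside the exons. They are printed 5′ to 3′ on the strand of the gene, with the E2F letters in capitals. That of Cdc6 is chr11:98907982-98908150 on the plus strand, that of Mcm5 chr8:75109329-75109508 on the plus strand, that of Mcm6 chr1:128359706-128359885 on the minus strand and that of Pola1 chrX:93632156-93632335 on the minus strand (GRCm38.p6). That of Cdc6 lies inside the gene as GENCODE M21 annotates it, between the first exon of longer transcripts and the start that RefSeq gives, and those of the other 3 lie before the annotated gene.
Cdc6: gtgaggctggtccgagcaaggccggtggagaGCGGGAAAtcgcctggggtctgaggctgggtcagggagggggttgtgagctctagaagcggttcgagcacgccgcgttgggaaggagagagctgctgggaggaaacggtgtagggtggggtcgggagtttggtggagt
Mcm5: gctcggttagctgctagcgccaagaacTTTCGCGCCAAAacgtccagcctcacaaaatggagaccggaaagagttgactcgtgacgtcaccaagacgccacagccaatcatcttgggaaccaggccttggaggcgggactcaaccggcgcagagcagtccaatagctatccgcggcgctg
Mcm6: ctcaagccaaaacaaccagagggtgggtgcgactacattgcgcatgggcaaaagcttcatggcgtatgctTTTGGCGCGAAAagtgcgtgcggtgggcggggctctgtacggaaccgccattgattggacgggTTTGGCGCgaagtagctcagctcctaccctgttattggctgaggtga
Pola1: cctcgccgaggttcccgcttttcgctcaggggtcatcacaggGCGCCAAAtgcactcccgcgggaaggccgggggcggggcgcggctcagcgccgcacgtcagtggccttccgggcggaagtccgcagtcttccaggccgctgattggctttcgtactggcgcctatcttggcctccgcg
In Mcm5 and Mcm6 a match on each strand overlaps to give a single run of capitals, and Mcm6 holds a further match nearer the start. Cdc6, Mcm5 and Pola1 were called higher and Mcm6 was not, so members with these letters stand on both sides of the threshold.

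The MCM ring, the helicase that unwinds DNA at the fork, rose in 5 of its 6 subunits, beside 19.0% of all tested genes called higher, and in 0 of 6 with the normal p-values, beside 9.21%. In the authors' deposited table Mcm5 stood at 189 FPKM in induced and 147 FPKM in non-induced cells, the largest change of the ring (log2 0.36, implied SE 0.14, q = 0.000287). Also called higher in the authors' deposited table were Mcm3 (214 FPKM induced, 177 FPKM non-induced), Mcm7 (159 FPKM induced, 132 FPKM non-induced), Mcm2 (187 FPKM induced, 159 FPKM non-induced) and Mcm4 (148 FPKM induced, 128 FPKM non-induced). Mcm6 had the highest level of all 43 genes and the smallest change of the ring, at 301 FPKM in induced and 266 FPKM in non-induced cells in the authors' deposited table (log2 0.18, implied SE 0.14, q = 0.0857). The log2 changes of Mcm5 and Mcm6 differ by less than the sum of their implied SE. By that error the subunits were not separated, and a difference was not tested. The authors' p-value for Mcm6 corresponds to a smaller SE, 0.08. The assembled ring holds 1 copy of each subunit, and the FPKM of Mcm6 was 1.60 times that of Mcm5 in induced cells and 1.82 times in non-induced cells. The Mcm7 row shares its locus with rows for Mir25, Mir93 and Mir106b, microRNAs that lie inside the gene, and none of these rows was tested.

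Origin recognition and licensing held both the largest rise and the sole lower value of the set. Cdt1, which loads the helicase together with Cdc6, was at 65.9 FPKM in induced and 45.6 FPKM in non-induced cells in the authors' deposited table (log2 0.53, implied SE 0.13, q = 0.000287). Cdc6 also rose, at 19.9 FPKM in induced and 15.2 FPKM in non-induced cells in the authors' deposited table (log2 0.39). These were the 2 called of the 6 genes of the role, beside 19.0% of all tested genes called higher. With the normal p-values Cdt1 was called and Cdc6 was not, beside 9.21% of all tested genes. Gmnn, which encodes geminin, the inhibitor that binds Cdt1 after origins have fired, was at 140 FPKM in induced and 123 FPKM in non-induced cells and missed the threshold in the authors' deposited table (q = 0.0846). The ratio of Cdt1 to Gmnn was 0.472 in induced and 0.369 in non-induced cells, a difference that was not tested.

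The listed subunits of the origin recognition complex were not called, beside 19.0% of all tested genes called higher. In the authors' deposited table Orc6 was at 65.6 FPKM in induced and 57.4 FPKM in non-induced cells (q = 0.0570). Orc1, the subunit whose level varies with the cell cycle in mammals, was at 11.7 FPKM in induced and 11.0 FPKM in non-induced cells (log2 0.09, implied SE 0.15, q = 0.453) in the authors' deposited table. Orc2 was at 41.8 FPKM in induced and 45.0 FPKM in non-induced cells in the authors' deposited table (log2 -0.11, implied SE 0.15, q = 0.337). A 95% normal interval from the implied SE of Orc2 runs from -0.40 to 0.19, so either sign is allowed.

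Origin firing genes gave the largest median change among the 9 roles, a median log2 change of 0.33 over 9 members, with 7 called higher, beside 19.0% of all tested genes. The medians of the MCM ring, 0.25, and of the clamp and its loader, 0.24, differed from it by less than the role's median implied SE, 0.15. Differences between roles were not tested. The ranking also depends on the genes listed. Of firing genes outside the 43, Wdhd1 (log2 0.32), Topbp1 (0.21), Donson (0.18), Mtbp (0.14), Ticrr (0.14) and Recql4 (0.10) lay below that median in the authors' deposited table. With the normal p-values 0 of the 9 were called, beside 9.21% of all tested genes. This role also covers cyclins E, which drive entry into S phase. All 3 listed subunits of GINS rose in the authors' deposited table: Gins2 (log2 0.40), Gins1 (0.36) and Gins3 (0.34). Gins4, the remaining subunit, is in the list of further replication genes. It was not called in the authors' deposited table (log2 0.07, implied SE 0.14, q = 0.557), so a rise of the whole complex was not shown. Gins2 was at 76.4 FPKM in induced and 58.0 FPKM in non-induced cells, but its locus also holds Gse1, and its implied SE of 0.28 was among the widest (q = 0.0407) in the authors' deposited table. The authors' deposited table gives Gins1 at 42.6 FPKM in induced and 33.2 FPKM in non-induced cells, and Gins3 at 13.2 FPKM in induced and 10.4 FPKM in non-induced cells.

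Cdc45, which joins GINS and MCM in the active helicase, was at 71.1 FPKM in induced and 56.9 FPKM in non-induced cells and rose, in the authors' deposited table. Mcm10, which helps to activate the helicase, rose as well, at 42.8 FPKM in induced and 34.0 FPKM in non-induced cells in the authors' deposited table (log2 0.33). The kinase gene Cdc7 rose, at 27.0 FPKM in induced and 21.4 FPKM in non-induced cells in the authors' deposited table (log2 0.34). Its activating subunit Dbf4 had the smallest change of the role, at 85.9 FPKM in induced and 81.8 FPKM in non-induced cells in the authors' deposited table (log2 0.07, implied SE 0.15, q = 0.567). The ratio of Dbf4 to Cdc7 was 3.18 in induced and 3.83 in non-induced cells, a difference that was not tested.

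Of the cyclins E, Ccne1 was called higher, at 32.4 FPKM in induced and 28.0 FPKM in non-induced cells in the authors' deposited table (q = 0.0384). Ccne2, at 27.9 FPKM in induced and 25.2 FPKM in non-induced cells, missed the threshold in the authors' deposited table (q = 0.406), and it shares its locus with Ints8. Their log2 changes, 0.21 and 0.15 in the authors' deposited table, differ by less than the implied SE of Ccne2, 0.23.

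Of the 4 members for polymerases and primase, Pola1 and Prim1 of the priming complex rose and the catalytic subunits of the main leading-strand and lagging-strand polymerases were not called, beside 19.0% of all tested genes called higher. With the normal p-values 0 of the 4 were called, beside 9.21% of all tested genes. Pola1, the catalytic subunit of the polymerase that starts each strand, had the largest change of the role, at 39.6 FPKM in induced and 33.3 FPKM in non-induced cells in the authors' deposited table (log2 0.25, implied SE 0.15, q = 0.00853). Prim1, the primase that makes the RNA primer, rose as well, at 77.7 FPKM in induced and 65.9 FPKM in non-induced cells in the authors' deposited table (log2 0.24). The ratio of Prim1 to Pola1 was 1.96 in induced and 1.98 in non-induced cells. Pold1, catalytic subunit of the main lagging-strand polymerase, was at 63.4 FPKM in induced and 58.5 FPKM in non-induced cells and missed the threshold in the authors' deposited table (q = 0.308). Pole, catalytic subunit of the leading-strand polymerase, had the smallest change of all 43 genes, at 27.4 FPKM in induced and 27.3 FPKM in non-induced cells in the authors' deposited table (log2 0.01, implied SE 0.15, q = 0.975). Its 95% interval of the same kind runs from -0.28 to 0.30, which holds the changes of Pola1 and Prim1. By that error a difference between the polymerases was not shown. The authors' p-value for Pole corresponds to a smaller SE, 0.08, so this reading depends on the column used. A difference between the genes was not tested. The accessory subunits, from the list of further replication genes, were mixed within each complex. For the priming complex, Prim2 (log2 0.42) rose and Pola2 (0.04) was not called in the authors' deposited table. Of the subunits that bind Pold1, Pold3 (log2 0.26) and Pold4 (0.44) rose and Pold2 (0.09) was not called in the authors' deposited table. Of those that bind Pole, Pole4 (log2 0.32) rose and Pole2 (-0.12) and Pole3 (-0.11) were not called in the authors' deposited table.

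The sliding clamp and 3 of 5 subunits of its loader rose, beside 19.0% of all tested genes called higher. With the normal p-values 1 of these 6 genes, Rfc3, was called, beside 9.21% of all tested genes. Pcna, the ring that holds polymerases on DNA, was at 210 FPKM in induced and 171 FPKM in non-induced cells in the authors' deposited table (log2 0.29). Of the loader, Rfc3 had the largest change, at 113 FPKM in induced and 83.9 FPKM in non-induced cells in the authors' deposited table (log2 0.43, implied SE 0.13, q = 0.000287). Rfc1, the large subunit, rose, at 50.4 FPKM in induced and 42.0 FPKM in non-induced cells, as the authors' deposited table lists it. Rfc2, a small subunit, rose too, at 150 FPKM in induced and 129 FPKM in non-induced cells, as the authors' deposited table lists it. Rfc4, at 86.8 FPKM in induced and 79.6 FPKM in non-induced cells, had the widest implied SE of the set, 0.33, in the authors' deposited table. Its locus also holds Eif4a2, Snora81 and Snord2, so its value is less certain. Rfc5 had the smallest change, at 53.0 FPKM in induced and 49.7 FPKM in non-induced cells in the authors' deposited table (log2 0.09, implied SE 0.14, q = 0.430). Annotation lists 2 processed copies of Pcna by name, and such copies can share fragments with their parent gene.

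Replication protein A, the trimer that coats single-stranded DNA, was the one role with no called member. That is 0 of 3 genes, beside 19.0% of all tested genes called higher, and so few genes do not set the role apart. In the authors' deposited table Rpa2 had the largest change, at 92.2 FPKM in induced and 80.7 FPKM in non-induced cells (log2 0.19, implied SE 0.13, q = 0.0560). Rpa1 was at 133 FPKM in induced and 121 FPKM in non-induced cells, and Rpa3 had the smallest change, at 86.1 FPKM in induced and 79.7 FPKM in non-induced cells, as the authors' deposited table lists them (log2 0.11, implied SE 0.12, q = 0.342 for Rpa3). All 3 were higher in induced cells, by 8.03% to 14.2%. For the discontinuous strand, the ligase gene Lig1 rose, at 131 FPKM in induced and 101 FPKM in non-induced cells in the authors' deposited table (log2 0.37, implied SE 0.15, q = 0.000287). Fen1, the flap nuclease that prepares the nick for Lig1, was at 119 FPKM in induced and 111 FPKM in non-induced cells and missed the threshold in the authors' deposited table (log2 0.11, implied SE 0.14, q = 0.340). Lig1 was thus 1 of 2 genes called, beside 19.0% of all tested genes called higher. With the normal p-values neither Lig1 nor Fen1 was called, beside 9.21% of all tested genes.

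Of the 4 genes for deoxynucleotide synthesis, Rrm2 rose and the other 3 were not called, beside 19.0% of all tested genes called higher. With the normal p-values Rrm2 was again the 1 called, beside 9.21% of all tested genes. Rrm2, the small subunit of ribonucleotide reductase and the one that limits the enzyme to S phase, was at 276 FPKM in induced and 203 FPKM in non-induced cells in the authors' deposited table (log2 0.44, implied SE 0.13, q = 0.000287). Rrm1, the large subunit, was at 210 FPKM in induced and 192 FPKM in non-induced cells and missed the threshold in the authors' deposited table (q = 0.220). The ratio of Rrm2 to Rrm1 was 1.31 in induced and 1.06 in non-induced cells, a difference that was not tested. Thymidine kinase, Tk1, was at 30.9 FPKM in induced and 27.6 FPKM in non-induced cells in the authors' deposited table (q = 0.189) and shares its locus with Afmid. Thymidylate synthase, Tyms, had the smallest change, at 24.7 FPKM in induced and 23.4 FPKM in non-induced cells in the authors' deposited table (log2 0.08, implied SE 0.15, q = 0.515).

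In chromatin assembly, neither listed subunit of chromatin assembly factor 1 was called, beside 19.0% of all tested genes called higher. Chaf1a was at 53.5 FPKM in induced and 47.5 FPKM in non-induced cells (q = 0.0969), and Chaf1b had the smallest change, at 51.4 FPKM in induced and 47.3 FPKM in non-induced cells (log2 0.12, implied SE 0.14, q = 0.277), in the authors' deposited table. The ratio of Chaf1a to Chaf1b was 1.04 in induced and 1.00 in non-induced cells. Slbp, which binds the stem loop at the end of histone messages and is needed for their processing, rose, at 129 FPKM in induced and 102 FPKM in non-induced cells in the authors' deposited table (log2 0.33, implied SE 0.14, q = 0.000287). It was the 1 called of the 3 genes of the role, beside 19.0% of all tested genes. With the normal p-values Slbp was not called either, beside 9.21% of all tested genes.

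**Figure D3:**
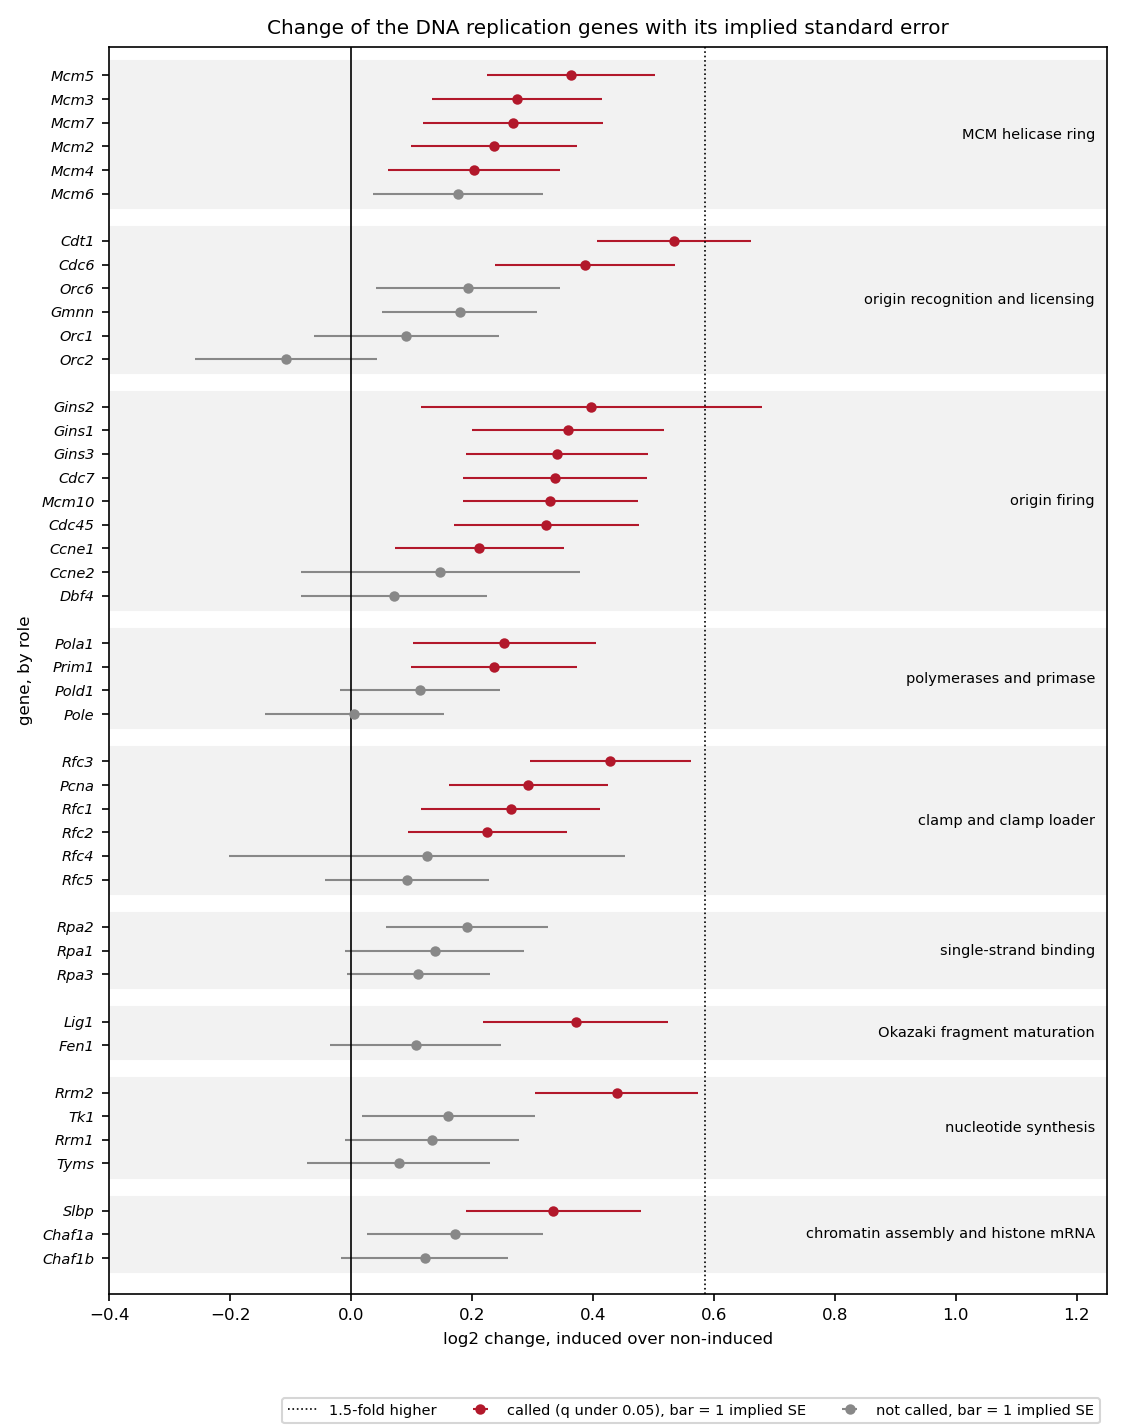
Log2 change of each replication gene, induced over non-induced, with bars of 1 implied SE, for called genes (red) and genes not called (grey), grouped by role, and a dotted line at 1.5-fold. All points except that of Orc2 lie above 0 and all lie below the dotted line, and the bars of most neighbours within a role overlap.

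The implied SE was of the same size for most members, at a median of 0.14, and it was 0.15 over all tested genes. The 7 members that share a locus with another row, Gins2, Lig1, Mcm7, Tk1, Ccne2, Rfc4 and Pold1, had implied SE of 0.13 to 0.33, against 0.12 to 0.16 for the other 36. Without them 20 of 36 members were called higher (55.6%), beside 20.6% of 8413 tested genes at unshared loci. The 95% interval of that kind excluded 0 for 13 of the 43 members and stayed below a log2 change of 1 for all 43. The widest upper end was 0.95, that of Gins2. How many of all tested genes had an interval that excluded 0 was not counted. By the authors' unadjusted Cuffdiff p under 0.05, 28 members were higher (65.1%), beside 22% of all tested genes. As stated above, the authors' p-values were smaller than their statistic alone would give.

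The members lie on 15 chromosomes, and 10 of the 43 (23.3%) lie on chromosome 5, which holds 6.42% of tested genes. These are Mcm7, Cdc7, Dbf4, Pole, Rfc1, Rfc2, Rfc3, Rfc5, Tyms and Slbp. In the authors' deposited table their log2 changes ran from 0.01 to 0.43, with 6 called higher, beside 19.4% of all tested genes of that chromosome, whose median log2 change was -0.01. Chromosome 8 holds 5 members, Mcm5, Cdt1, Orc6, Gins2 and Gins3, 4 of them called higher beside 15.5% of its tested genes, at log2 changes of 0.19 to 0.53 in the authors' deposited table.

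Other genes of replication were called higher more often than lower, with a wider scatter. Of 59 further genes in a list of the pathway, all tested, 22 were called higher, beside 19.0% of all tested genes. Called lower were 2, beside 16.1% of all tested genes, and the median log2 change was 0.13. The largest rises called were those of Samhd1, which breaks down deoxynucleotides, at 17.0 FPKM in induced and 5.05 FPKM in non-induced cells (log2 1.75), Uhrf1, which brings DNA methylation to new strands (0.63), and Dscc1 of an alternative clamp loader (0.48), in the authors' deposited table. Samhd1 is thus the 1 gene of the pathway lists that rose by more than 2-fold, and its known action is opposite to that of Rrm2. The called lower genes were Dctd, a deoxycytidylate deaminase, at 6.36 FPKM in induced and 7.82 FPKM in non-induced cells (log2 -0.30), and Rnaseh2a, a subunit of the nuclease that removes RNA from DNA, at 29.8 FPKM in induced and 35.6 FPKM in non-induced cells (log2 -0.26), in the authors' deposited table. Rnaseh2b, another subunit of the same nuclease, rose (log2 0.39) in the authors' deposited table. The other origin recognition genes Orc3, Orc4 and Orc5 had log2 changes of -0.09 each in the authors' deposited table and were not called. Each of them shares its locus with another row, and the implied SE of Orc5 was 0.32.

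Mitosis genes, which act after replication in the same cycle, gave similar figures. Of 39 tested, Cuffdiff called 20 higher, beside 19.0% of all tested genes, and 0 lower, beside 16.1%. At its unadjusted p under 0.05, 0 were lower as well, beside 20.4% of all tested genes. The median log2 change was 0.20. Kif23 (log2 0.67), Anln (0.57) and Nusap1 (0.51), which act in spindle assembly and cell division, led the rises in the authors' deposited table. Anln and Nusap1 each share a locus with another row, and the implied SE of Anln was 0.26. The mitosis list and the list of further replication genes share no member with the 43 genes and share 1 gene, Top2a, with each other. With normal p-values from the authors' statistic, 11 of the 59 further replication genes and 3 of the 39 mitosis genes were called higher, beside 9.21% of all tested genes.

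**Figure D4:**
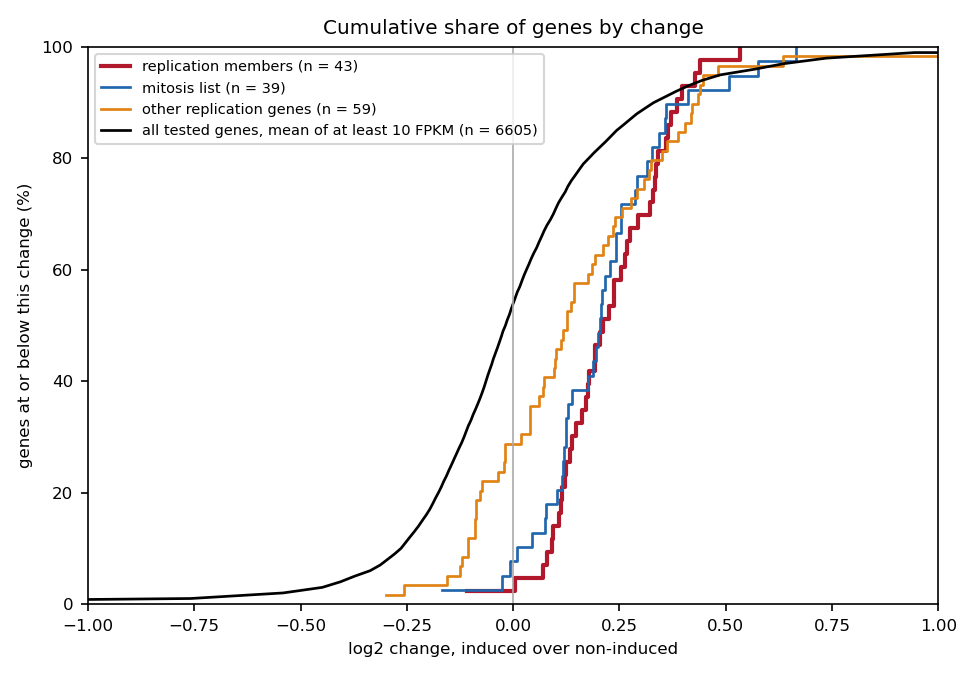
Cumulative share of genes (vertical axis, %) at or below each log2 change, induced over non-induced (horizontal axis), for the 43 replication genes (red), 39 mitosis genes (blue), 59 other replication genes (orange) and 6605 tested genes with a mean of at least 10 FPKM (black). The red and blue curves run close together with medians of 0.21 and 0.20, the orange curve has a median of 0.13 and the black curve crosses 50% just below 0.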

How the data were processed

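Stranded mRNA libraries were made from column-purified total RNA, per the labels' protocols. The submitters' processing notes name Trim Galore 0.2.8.1, TopHat2 2.0.9, Cufflinks, Cuffdiff 2.1.1 and build mm10. For the annotation and the strand setting, no source used here gives them. The deposited table holds 1 FPKM value per gene and group, a log2 change and a test statistic, which is a score without a fixed range. It also holds a p-value and a q-value per gene, and the authors made all of these. The authors had tested 10657 of 23793 rows. The deposited q-values differed by at most 5.15e-07 from Benjamini-Hochberg values recomputed over tested rows.

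With group values only, no test of replicates was made here. A call is the authors' q under 0.05. Alternatives were normal p-values from the statistic (29 tested rows without one kept the authors' p), q under 0.01, minimum means of 1, 5 and 10 FPKM, unshared loci, minimum changes of 25% and 1.5-fold, rescaling, and pseudocounts of 0.1 and 1. The implied SE assumes that the statistic is the log change over its error, which the table does not state. Depth was read from genes with 1 transcript of at least 1 kb, as FPKM times length: 65.5% of low values in the induced group and 70.2% in the non-induced group lay within 0.15 of a whole number of steps, against 30% for evenly spread values, so it is approximate and that of single libraries is unknown. Gene positions came from GENCODE M21, and RefSeq windows from GRCm38.p6. Promoter sequences of 7 members were not used here.

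The members and lists were chosen with earlier results of these data known. Both values are given for every member. Change, implied SE and q are given for the largest and smallest change of each role and for members against the direction of their role. Of other lists, up to 3 called genes per direction are named. Adjusted and motif steps were tested on simulated data. Python 3.11.15, pandas 2.3.3, SciPy 1.17.1 and matplotlib 3.10.9 were used.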

Additional observations from a re-analysis of the deposited data

How the results depend on the processing

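The 43 members kept a median log2 change of 0.21 under the main scaling, and under centring, rescaling to a common total, both pseudocounts and without shared loci the median and those of the 9 roles kept their sign and moved by less than the implied SE. No minimum mean removed a member. Counts depended on the rule. With normal p-values from the statistic, called rises numbered 3 members, 11 other replication genes, 3 mitosis genes and 981 of all tested genes, and called falls 0 other replication genes, 3 G1/S regulators and 657 of all tested genes. At q under 0.01, 13 of 39 mitosis genes were higher, beside 14.8% of all tested genes. At the same threshold 1 of 59 other replication genes was lower, beside 11.1% of all tested genes. At 1.5-fold or more the called rises numbered 0 members, 2 other replication genes, 7 G1/S regulators, 1 mitosis gene and 676 of all tested genes, and the falls 0 other replication genes, 3 G1/S regulators and 410 of all tested genes. Called rises of at least 25% numbered 13 of 43 members, 13 of 59 other replication genes and 8 of 39 mitosis genes. Over all tested genes there were 1395 such rises (13.1%). Called falls by the same ratio numbered 0 other replication genes and 968 of all tested genes (9.08%). At a mean of at least 10 FPKM, chosen after seeing the data, 1 other replication gene was lower, and 1135 of all tested genes were higher and 969 lower. The remaining counts stayed within 1.5 times. The stricter rules call fewer genes by construction. For the normal p-values, the cause of the difference from the authors' p-values was not tested. No paired analysis was possible because the table gives 1 value per group, and no library could be left out for the same reason.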

Other observations

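Genes that govern entry into S phase were called in both directions. Of 35 tested regulators of the G1/S step, 13 were called higher and 6 lower, beside 19.0% and 16.1% of all tested genes. The largest rises were in Rb1, the E2F-binding repressor, at 42.3 FPKM in induced and 21.5 FPKM in non-induced cells (log2 0.98, implied SE 0.16), in Cdkn1b, which encodes the kinase inhibitor p27 (0.97), and in Ccnd3, a D cyclin, at 1167 FPKM in induced and 646 FPKM in non-induced cells (0.85), as log2 changes of the authors' deposited table. The largest falls were in the kinase inhibitor gene Cdkn2b (log2 -0.87), in Myc, at 125 FPKM in induced and 212 FPKM in non-induced cells (-0.76), and in Ccnd2 (-0.65), in the authors' deposited table. Rb1, Ccnd3 and Ccnd2 each share a locus with another row. The E2F genes were named after their values were seen. Of these, E2f1 (log2 0.78), E2f2 (0.76) and E2f7 (0.38) rose and E2f8 (-0.35) fell in the authors' deposited table. E2f3 (log2 0.18), E2f4 (-0.05) and E2f5 (0.11) were not called in the authors' deposited table, and E2f6 was listed at 0 in both groups.

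The files measure RNA and not cell division, so a rate of replication was not measured.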
